A study of Mus musculus with 7 samples.

Results

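The choroid plexus is the epithelial tissue of the brain ventricles that secretes cerebrospinal fluid, and the plexus of the fourth ventricle lies against the cerebellum. A set of 32 genes known for high expression in its epithelium was followed by gene symbol in the deposited tables, which hold 55450 genes, and all 32 were found once and passed the filter on low counts. The set was described in RNA-seq of polyadenylated RNA from whole cerebella of C57BL/6 mouse pups at postnatal day 15. The 7 libraries came from 4 L3mbtl3 KO/+ mice, which carry 1 knockout and 1 wild-type allele of L3mbtl3, a chromatin reader with MBT domains, and from 3 wild-type (WT) cerebella without the knockout allele. The labels name no treatment, litter, sex or dissection batch and do not say which bases of L3mbtl3 are missing, and nothing says how much of the fourth ventricle roof was taken with a cerebellum. Replicates are single libraries, so p-values measure the spread between these samples.

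Choroid plexus epithelial cells draw water and ions from the blood side and release them into the ventricle through apical pumps, channels and aquaporin. They also secrete carrier proteins, among them transthyretin (Ttr), which binds thyroxine, and they take up folate through the receptor Folr1. Both are standard markers of this epithelium, and some other genes of the set are also known in cells of the cerebellum itself, such as Otx2 in granule neuron progenitors and Enpp2 in oligodendrocytes.

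Libraries held between 29248342 and 43761782 expected counts. Levels between libraries are given as CPM, counts scaled to the size of the library and TMM factors, and levels beside other genes as TPM, which also allow for transcript length. L3mbtl3 itself had 19.7, 17.4, 22.3 and 23.0 CPM in KO/+ replicates 1 to 4, against 22.6, 26.8 and 23.2 CPM in WT replicates 1 to 3. Its level overlapped between genotypes, with a log2 fold change of -0.23 ± 0.12 (SE, adjusted p = 0.957, edgeR), and because the deleted part is not given these counts do not check the labels. No libraries agreed within sampling noise, with a chi-square per degree of freedom of at least 10.0 over genes for every pair.

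The libraries stood apart in the choroid plexus markers before any comparison of genotypes. Ttr had 2250, 1616, 1208 and 6.48 TPM in KO/+ replicates 1 to 4, against 2.78, 1750 and 21.1 TPM in WT replicates 1 to 3. KO/+ replicates 1 to 3 and WT replicate 2 were therefore high and KO/+ replicate 4 and WT replicates 1 and 3 low, so both genotypes held libraries of each kind, and the highest library had 886 times the CPM of the lowest. Folr1 had 13.6, 8.75, 7.16 and 0.541 CPM in KO/+ and 0.604, 10.0 and 0.631 CPM in WT, with the same 4 libraries high and a 25.1-fold range. The labelled tissue, cerebellum, had its defining markers in every library, with 1949 to 2659 TPM of the Purkinje cell gene Pcp2 and 411 to 631 TPM of the granule neuron gene Gabra6. In RNA from bulk tissue, fewer choroid plexus cells and less of these RNAs per cell cannot be told apart. The 32 genes together took 0.221%, 0.187%, 0.148% and 0.0278% of counts in KO/+ and 0.0326%, 0.179% and 0.0464% in WT.

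Sequences are shown for 2 members, Enpp2 and Car12, which were singled out after their transcript values were seen. Each has a transcript with and a transcript without a cassette exon. Of these transcripts, 1 kept the order of Ttr across libraries and the other did not. The exons are shown here, as 1 of the differences between these transcripts, in capitals between 12 lower-case bases of the flanking exons, 5′ to 3′ on the coding strand, from the GENCODE M21 transcripts (GRCm38). The Car12 exon, 30 coding bases at chr9:66762403-66762432 on the plus strand, is exon 9 of the 11 of Car12-201 and is absent from Car12-202. The Enpp2 exon, 75 coding bases at chr15:54851348-54851422 on the minus strand, is exon 20 of the 26 of Enpp2-202 and is absent from Enpp2-201.
Car12-201: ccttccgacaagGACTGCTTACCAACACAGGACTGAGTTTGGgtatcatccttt
Enpp2-202: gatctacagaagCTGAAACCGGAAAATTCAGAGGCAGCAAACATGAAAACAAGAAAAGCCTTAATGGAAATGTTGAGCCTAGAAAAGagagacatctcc
Both lengths are multiples of 3, so the exons keep the reading frame. The values of these transcripts follow those of the genes.

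Which members moved with Ttr between libraries was described in 3 ways, none of them a test. The first is the CPM in WT replicate 1, the library with the least Ttr, as a percentage of that in KO/+ replicate 1, the library with the most. The second is how many of the 12 pairs of libraries whose Ttr TPM lay more than 50-fold apart put the member in the same order as Ttr, a limit chosen after the Ttr values were seen. The third, the rule set out for the description, called a gene as following Ttr where its centred log2 CPM profile differed from that of Ttr by a root mean square of 0.5 or less. None of the 16812 genes tested other than Ttr, members included, met the third rule. Scarce genes could hardly meet it, since their counts cannot span the 886-fold range of Ttr. Kcne2, with 0 counts in KO/+ replicate 4, still differed by 1.45, and the abundant Enpp2 by 3.25. Against Folr1 instead of Ttr, 3 of 31 members met the rule (Aqp1 at 0.183, Krt8 at 0.271 and Kl at 0.478), beside 4 of all 16812 genes.

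By the order in pairs, 26 of the 31 members other than Ttr were higher in the library with more Ttr in all 12 pairs, a share of 83.9% against 2.80% of all genes tested. For 14 of the 31 the CPM was also at least 5-fold higher in KO/+ replicate 1 than in WT replicate 1. This held for 34 of the 16812 genes (0.202%). In TPM, Car12 and Trpv4 of these 14 kept 21.8% and 20.8% in WT replicate 1, just short of 5-fold. The 5 members outside the order of Ttr were Ace in 11 of 12 pairs, Prlr in 10, Slco1a5 in 8, Otx2 in 7 and Rdh5 in 6. The libraries behind these pairs are the same few, so the counts describe these 7 libraries.

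**Figure D1:**
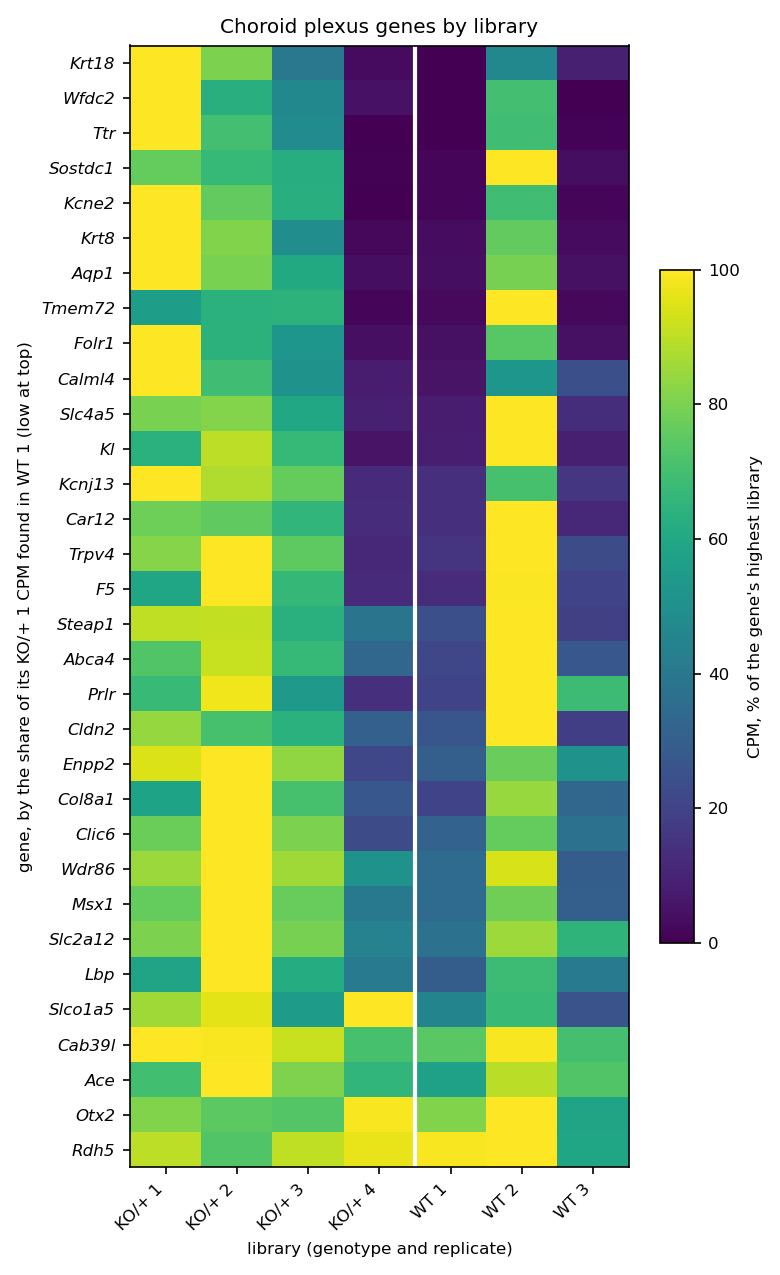
Heat map of the 32 genes (rows, ordered by the share of their KO/+ replicate 1 CPM found in WT replicate 1, low at the top) in the 4 KO/+ and 3 WT libraries (columns), with colour giving CPM as a percentage of the gene's highest library. Most rows are bright in KO/+ replicates 1 to 3 and WT replicate 2 and dark in KO/+ replicate 4 and WT replicates 1 and 3, whereas Cab39l, Ace, Otx2 and Rdh5 at the bottom stay bright in every library.

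Among the secreted proteins, Sostdc1, an antagonist of BMP and Wnt signalling, had 7.82, 6.84, 6.36 and 0.0677 CPM in KO/+ and 0.131, 10.2 and 0.397 CPM in WT. Its low libraries rested on 2, 5 and 17 counts, and WT replicate 1 kept 1.68% of the level of KO/+ replicate 1. Klotho (Kl), a membrane and shed co-receptor for FGF23, had 12.6, 17.9, 13.3 and 1.05 CPM in KO/+ and 1.65, 19.8 and 1.73 CPM in WT. It was highest in WT replicate 2 and not, as Ttr was, in KO/+ replicate 1. Coagulation factor V (F5) had 3.88, 6.56, 4.36 and 0.778 CPM in KO/+ and 0.840, 6.53 and 1.31 CPM in WT. Wfdc2, a small protein with whey acidic protein domains, was scarce throughout, with 24, 17, 11 and 1 counts in KO/+ and 0, 18 and 0 counts in WT.

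Other secreted members differed less between libraries. Autotaxin (Enpp2), which makes lysophosphatidic acid, had between 87.0 and 367 TPM, next to Ttr where Ttr was above 1000 TPM and the highest member elsewhere, with 643, 680, 567 and 145 CPM in KO/+ and 206, 524 and 346 CPM in WT. WT replicate 1 kept 32% of the level of KO/+ replicate 1, and WT replicate 3 stood between the groups of high and low libraries. The lipopolysaccharide-binding protein Lbp had 7.38, 12.6, 7.83 and 5.28 CPM in KO/+ and 3.70, 8.67 and 5.19 CPM in WT. Col8a1, a short-chain collagen, had 6.19, 10.7, 7.54 and 2.91 CPM in KO/+ and 2.15, 9.02 and 3.53 CPM in WT. For both genes KO/+ replicate 2 was the highest library, and WT replicate 1 kept 50.2% of the Lbp level and 34.8% of the Col8a1 level of KO/+ replicate 1.

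The receptors behaved unlike each other. Folr1, which carries folate across the epithelium, kept 4.44% in WT replicate 1. The prolactin receptor Prlr had 2.58, 3.70, 2.03 and 0.507 CPM in KO/+ and 0.761, 3.79 and 2.59 CPM in WT. Prlr in WT replicate 3 was thus above KO/+ replicate 3, although Ttr was 57.1-fold lower there in TPM.

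The water, ion and acid-base transporters included Aqp1, the member closest to Folr1 in profile. Aquaporin 1 (Aqp1), the apical water channel, had 13.7, 11.0, 8.33 and 0.507 CPM in KO/+ and 0.499, 10.9 and 0.631 CPM in WT. In CPM it stood in the order of Ttr in all 21 pairs of libraries, as Calml4, a calmodulin-like protein, and the keratin Krt18 also did. Ttr was higher in KO/+ replicate 2 than in WT replicate 2 in CPM (948 and 938) but lower in TPM (1616 and 1750). In TPM, Calml4 (7.55 and 5.14) and Krt18 (2.56 and 1.63) were higher in KO/+ replicate 2, unlike Ttr. Kcne2, a regulatory subunit of potassium channels, had 7.01, 5.33, 4.39 and 0 CPM in KO/+ and 0.131, 4.85 and 0.0935 CPM in WT. The 3 low libraries held 0, 5 and 4 Kcne2 counts, near the floor of 3 counts. The electrogenic bicarbonate cotransporter Slc4a5 had 8.11, 8.26, 6.07 and 0.879 CPM in KO/+ and 0.761, 10.1 and 1.31 CPM in WT. The inward rectifier Kcnj13 (Kir7.1) had 6.63, 5.84, 5.06 and 0.812 CPM in KO/+ and 0.919, 4.71 and 1.05 CPM in WT. Of the 1270 exon bases of Kcnj13, 623 are shared with Gigyf2 on the opposite strand, which had between 97.0 and 110 CPM, and the strand setting of the counting is not given in the sources used here. WT replicate 1 kept 13.9% of the Kcnj13 level, and whether reads of Gigyf2 are part of that was not tested.

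Carbonic anhydrase 12 (Car12), a membrane enzyme of bicarbonate handling, had 8.31, 8.03, 7.01 and 1.35 CPM in KO/+ and 1.47, 10.6 and 1.22 CPM in WT. Trpv4, a calcium-permeable channel gated by osmotic and thermal stimuli, had 3.59, 4.37, 3.30 and 0.507 CPM in KO/+ and 0.683, 4.39 and 1.01 CPM in WT. For both genes KO/+ replicate 4 and WT replicates 1 and 3 were below every other library. Clic6, of the chloride intracellular channel family, had 18.5, 23.8, 19.1 and 5.48 CPM in KO/+ and 7.48, 18.3 and 8.98 CPM in WT. The TPM of Clic6 was 9.77 in WT replicate 3 and 9.62 in WT replicate 2, so the order of these libraries depends on the unit. In WT replicate 3 a short transcript, Clic6-202, with 11 counts received 60.5% of the Clic6 isoform percentage, which is why CPM is used between libraries here.

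WT replicate 1 kept 40.4% of the Clic6 CPM of KO/+ replicate 1. In CPM, the lipid transporter Abca4 kept 29.5% in WT replicate 1, the STEAP family member Steap1 27.1% and the glucose transporter Slc2a12 46.3%. In TPM the shares were 62.2% for Abca4, 29.7% for Steap1 and 50.8% for Slc2a12, so that of Abca4 depends on the unit. Slc2a12 shares 407 of 4237 exon bases with Tbpl1 on the opposite strand, at a mean of 57.0 CPM. The organic anion transporter Slco1a5 had the lowest mean of this role, 0.297 TPM, with 19, 24, 12 and 19 counts in KO/+ and 11, 16 and 7 counts in WT. Its counts are uncertain, since it belongs to a family of close paralogues between which reads may be split.

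Of the epithelial structure genes, the keratins Krt8 and Krt18, which pair into filaments and lie 23.7 kb apart on chromosome 15, were near absent from the same libraries. Krt8 had 1.68, 1.36, 0.825 and 0.0338 CPM in KO/+ and 0.0525, 1.27 and 0.0467 CPM in WT. Krt18 had 84, 76, 33 and 2 counts in KO/+ and 0, 42 and 9 counts in WT. The tight junction protein Cldn2 had 7.18, 6.05, 5.45 and 2.60 CPM in KO/+ and 2.28, 8.53 and 1.59 CPM in WT, and WT replicate 1 kept 31.8% of the KO/+ replicate 1 level. Tmem72, a membrane protein, had 5.96, 6.82, 6.92 and 0.169 CPM in KO/+ and 0.263, 10.7 and 0.210 CPM in WT. Calml4 had 2.89, 2.01, 1.47 and 0.237 CPM in KO/+ and 0.158, 1.52 and 0.701 CPM in WT. Wdr86, a WD-repeat protein, kept 41.0% and Msx1, a homeobox factor of dorsal midline tissue, 45.7% in WT replicate 1.

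**Figure D2:**
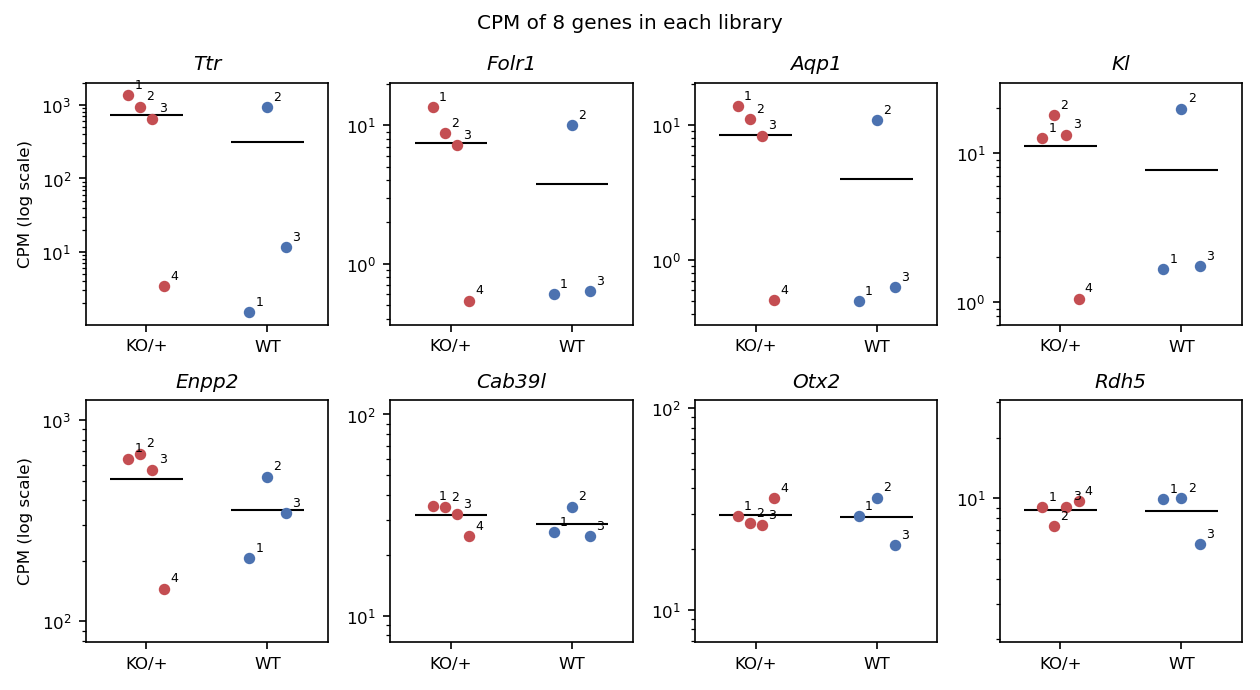
CPM (log scale) of 8 of the genes in each of the 4 KO/+ and 3 WT libraries (points, numbered by replicate), with the group mean as a line. Ttr, Folr1, Aqp1 and Kl fall in KO/+ replicate 4 and WT replicates 1 and 3, Enpp2 falls there less steeply, and Cab39l, Otx2 and Rdh5 span at most 1.72-fold over all 7 libraries.

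The other extreme was a group of 4 members, Cab39l, Ace, Otx2 and Rdh5, of which WT replicate 1 kept 74.3% to 110%. The homeobox factor Otx2 had 29.2, 26.9, 26.3 and 35.6 CPM in KO/+ and 29.1, 36.0 and 20.97 CPM in WT. Its highest values were in KO/+ replicate 4 and WT replicate 2, and WT replicate 1 kept 99.9% of the KO/+ replicate 1 level while Ttr kept 0.113%. Beside it, the genes of granule neuron progenitors and the cell cycle summed to 142, 117, 267 and 314 TPM in KO/+ and 359, 346 and 133 TPM in WT, and Eomes, a marker of unipolar brush cells, had 11.8, 7.31, 13.2 and 17.3 TPM in KO/+ and 12.7, 15.1 and 9.28 TPM in WT. WT replicate 3 was the lowest WT library for Otx2, for the progenitor genes and for Eomes. Their part in the level of Otx2 was not tested.

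Rdh5, a retinol dehydrogenase best known from the retinal pigment epithelium, had 9.06, 7.31, 9.10 and 9.71 CPM in KO/+ and 9.95, 10.0 and 5.91 CPM in WT. It shares 720 of its 2809 exon bases with Bloc1s1 on the same strand, and Bloc1s1 had 55.4, 54.9, 44.2 and 41.1 CPM in KO/+ and 44.2, 42.2 and 40.7 CPM in WT, so the assignment of reads between them is uncertain. Of 6 marker genes of retinal pigment epithelium and photoreceptors, 5 stayed under 0.5 CPM in every library. The remaining gene, Rlbp1, had 11.8, 11.2, 11.0 and 11.8 CPM in KO/+ and 13.3, 10.4 and 9.56 CPM in WT. The source of Rdh5 was not tested. Angiotensin-converting enzyme (Ace) had 20.9, 29.9, 24.1 and 19.7 CPM in KO/+ and 17.1, 26.8 and 21.8 CPM in WT. Ace is also known in endothelium, whose 10 markers summed to 183, 237, 273 and 190 TPM in KO/+ and 181, 212 and 242 TPM in WT. Their part in the level of Ace was not tested.

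Cab39l, a scaffold protein of the LKB1 kinase complex, kept 74.3% in WT replicate 1 and yet stood in the order of Ttr in all 12 pairs. It had 35.1, 34.7, 32.1 and 24.9 CPM in KO/+ and 26.1, 34.9 and 24.8 CPM in WT. The libraries rich in Ttr lay between 32.1 and 35.1 CPM and the others between 24.8 and 26.1 CPM, so the excess was small beside the level that remained. Cab39l shares 261 of 6841 exon bases with Cdadc1 on the opposite strand, at a mean of 48.4 CPM, and in all 10 of the 32 members share exon bases with another gene. The scarce transcript Cab39l-204 had 19, 19, 13 and 3 counts in KO/+ and 0, 12 and 1 counts in WT, in the order of Ttr in all 12 pairs as well.

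Levels were also set beside Ttr in the same library. For each 1000 TPM of Ttr, Folr1 had 11.2, 9.82, 12.5 and 177 TPM in KO/+ and 601, 13.8 and 65.8 TPM in WT. Krt8 had 0.644, 0.743, 0.654 and 4.63 TPM per 1000 TPM of Ttr in KO/+ and 17.99, 0.703 and 1.89 in WT, where the values of KO/+ replicate 4 and WT replicates 1 and 3 rest on 1, 2 and 2 Krt8 counts, below the floor of 3. Otx2 had 15.1, 19.0, 28.1 and 7040 TPM per 1000 TPM of Ttr in KO/+ and 13396, 26.5 and 1318 in WT. Ttr itself spanned 1.86-fold in TPM over KO/+ replicates 1 to 3 and WT replicate 2. All 3 genes had higher proportions to Ttr in KO/+ replicate 4 and WT replicates 1 and 3, with the highest in WT replicate 1.

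Markers of neighbouring tissues were read for the same libraries. The 12 ependymal and cilia genes summed to 179, 166, 167 and 163 TPM in KO/+ and 162, 170 and 154 TPM in WT, and the 12 meningeal and fibroblast genes to 118, 182, 184 and 200 TPM in KO/+ and 154, 169 and 148 TPM in WT. The 10 brainstem neuron genes summed to 12.1, 17.98, 16.0 and 11.8 TPM in KO/+ and 12.9, 12.4 and 34.3 TPM in WT. The ependymal sum was higher in KO/+ replicates 1 to 3 and WT replicate 2 than in KO/+ replicate 4 and WT replicates 1 and 3. This was the order of Ttr in all 12 pairs, within a range of 154 to 179 TPM. Mia was the largest part of the sum in every library, with 120, 99.9, 117 and 126 TPM in KO/+ and 127, 125 and 73.5 TPM in WT. Mia itself stood in the order of Ttr in 8 of 12 pairs. Several cilia genes, among them Ccdc153, Dynlrb2 and Tmem212, were instead highest in WT replicate 3, where Ttr was low. The part of the ependymal genes in the levels of the members was not tested. The meningeal and brainstem sums were not in the order of Ttr. The number of genes called between genotypes was 0 in every list, as it was among all 16813 genes tested. Without adjustment, 5 of the 12 meningeal genes had an edgeR p under 0.05, all of them higher in KO/+. Of the ependymal genes 1 did, lower in KO/+, and of the brainstem genes 0. Among all genes tested, 210 were higher and 320 lower by that limit. Foxj1, the master regulator of motile cilia, had 3.85, 6.23, 5.36 and 2.33 TPM in KO/+ and 1.94, 4.45 and 8.33 TPM in WT, and the cilium gene Pifo was the 1 ependymal gene in the order of Ttr in all 12 pairs.

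A second list of 22 genes known from choroid plexus, of which 20 passed the filter, was less uniform. It held 7 genes in the order of Ttr in all 12 pairs, and 5 of these were also at least 5-fold higher in KO/+ replicate 1 than in WT replicate 1 (Prr32, Slc16a8, Cldn1, Mfrp and 1500015O10Rik). Its most abundant genes, Igf2, Vat1l and Igfbp2, kept 95.9%, 102% and 65.7% in WT replicate 1. Where only genes averaging 1 CPM or more are considered, the 10 outside the set with profiles nearest to Ttr over the 7 libraries were Prr32, Pcna-ps2, Mfrp, Cldn1, 1500015O10Rik, Gm13111, Eif3j2, Zfp125, Drc7 and Rec8, with root mean square differences of 1.55 to 3.09 on the log2 scale. Prr32 had 2.58, 1.41, 1.47 and 0 CPM in KO/+ and 0.0525, 2.19 and 0.0701 CPM in WT. Mfrp, a membrane frizzled-related protein, had 5.53, 7.87, 5.33 and 0.203 CPM in KO/+ and 0.315, 8.85 and 0.514 CPM in WT. Likeness by this measure reached genes with other patterns, since Eif3j2 had 27.6, 25.2, 24.4 and 2.81 CPM in KO/+ and 2.00, 2.00 and 1.59 CPM in WT and was low in WT replicate 2, where Ttr was high. Counts of Eif3j2 and Pcna-ps2 are uncertain, since reads may be split with a near-identical paralogue or parent gene.

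Transcripts were a further readout. The 32 genes had 148 listed transcripts, 59 of which passed the filter, and 35 of the 59 stood in the order of Ttr in all 12 pairs. The 35 include Ttr-201, which was compared with its own gene. They also include transcripts such as Aqp1-201 that hold 100% of their gene and repeat its result. The share over all transcripts tested is not given here. Enpp2-201, without the exon shown above, had 482, 498, 410 and 97.6 CPM in KO/+ and 132, 402 and 208 CPM in WT. Enpp2-202, with the exon, had 90.1, 119, 92.2 and 32.3 CPM in KO/+ and 50.9, 54.1 and 103 CPM in WT. The first stood in the order of Ttr in all 12 pairs and the second in 9, and for the second WT replicate 3 was the highest WT library and WT replicate 2 was near WT replicate 1. The 8 genes of myelinating oligodendrocytes summed to 9188, 12985, 12047 and 6637 TPM in KO/+ and 9081, 8381 and 15256 TPM in WT, also highest among WT libraries in WT replicate 3, and their part in the level of Enpp2-202 was not tested. The 2 transcripts differ at the 3′ end too, so the exon is not the only basis on which reads were assigned.

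Car12-201, with the exon shown above, had 7.40, 7.24, 5.49 and 0 CPM in KO/+ and 0.28, 8.20 and 0 CPM in WT. Car12-202, without it, had 0.78, 0.87, 1.48 and 1.27 CPM in KO/+ and 1.11, 2.31 and 1.24 CPM in WT. The first was in the order of Ttr in all 12 pairs and the second in 6, and in KO/+ replicate 4 and WT replicates 1 and 3 most Car12 counts were assigned to the form without the exon. By contrast, the 7 tested Otx2 transcripts included 0 in the order of Ttr in all 12 pairs, and the most abundant, Otx2-201, had 15.6, 15.1, 11.6 and 18.7 CPM in KO/+ and 13.9, 17.1 and 10.6 CPM in WT. Estimates for transcripts carry an uncertainty of assignment that was not modelled.

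**Figure D3:**
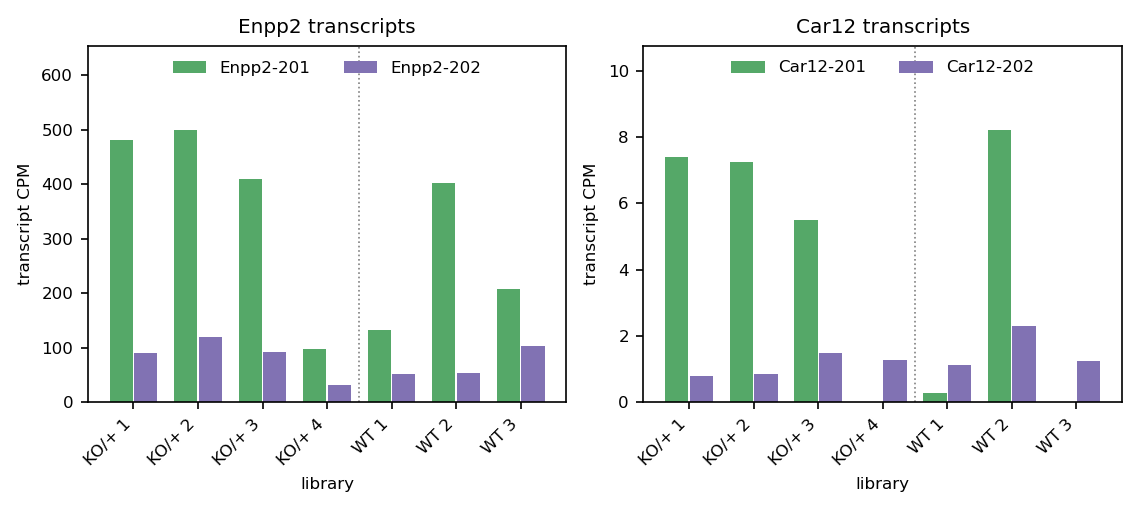
CPM of 2 transcripts each of Enpp2 (left) and Car12 (right) in the 4 KO/+ and 3 WT libraries (bars). Enpp2-201 and Car12-201 drop in KO/+ replicate 4 and WT replicates 1 and 3, whereas Car12-202 lies between 0.78 and 2.31 CPM in all 7 libraries.

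Because most members moved together, the 250 bases before their RefSeq start sites (GRCm38.p6) were searched on both strands for TAATCC, the core bound by OTX proteins, and for TATAAA. Of the 32 genes, 26 matched by symbol, and their promoters are counted as holding a motif where any listed start does. Ttr, Folr1, Sostdc1, Clic6, Enpp2 and Lbp had no match, so the shares leave out both marker genes. TAATCC or its reverse complement GGATTA was found in 3 of 26 (11.5%), Abca4, Ace and Otx2, against 7.21% of 27025 genes with promoters. TATAAA or its reverse complement TTTATA was found in 7 of 26 (26.9%), against 14.3% of genes. These were Kcnj13, Abca4, Slc4a5, Slco1a5, Ace, Otx2 and Cldn2, of which Slco1a5, Ace and Otx2 were not in the order of Ttr in all 12 pairs. Genes with more listed starts have more chances to hold a motif. Counted by start, TAATCC was in 8.33% of 36 member windows against 6.25% of all 32851, and TATAAA in 22.2% against 12.4%, reverse complements included. The promoters below are those in which TATAAA or TTTATA begins 29 to 35 bases before the start, shown because this is the usual place of a TATA box, in the 5′ to 3′ direction of the gene and with the motifs in capitals. Kcnj13 (chr1:87394730-87394979, minus) and Cldn2 (chrX:139800558-139800807, plus) stood in the order of Ttr in all 12 pairs, and Ace (chr11:105967698-105967947, plus), in which TTTATA and TAATCC overlap, in 11.
Kcnj13: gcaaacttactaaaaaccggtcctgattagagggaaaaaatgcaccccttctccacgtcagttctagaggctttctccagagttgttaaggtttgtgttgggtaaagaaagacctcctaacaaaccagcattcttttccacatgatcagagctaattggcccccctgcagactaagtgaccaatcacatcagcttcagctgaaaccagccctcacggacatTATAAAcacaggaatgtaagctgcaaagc
Cldn2: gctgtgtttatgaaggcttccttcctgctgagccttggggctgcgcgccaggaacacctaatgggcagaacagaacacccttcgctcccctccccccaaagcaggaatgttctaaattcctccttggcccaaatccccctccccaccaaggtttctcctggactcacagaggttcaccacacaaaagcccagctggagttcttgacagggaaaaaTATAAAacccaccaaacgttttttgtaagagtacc
Ace: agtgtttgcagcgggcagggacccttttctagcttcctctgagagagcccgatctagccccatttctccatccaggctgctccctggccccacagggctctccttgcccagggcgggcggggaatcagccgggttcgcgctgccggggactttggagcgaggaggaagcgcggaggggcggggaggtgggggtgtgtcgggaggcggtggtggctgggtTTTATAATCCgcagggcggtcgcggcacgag
A match is a description of these letters and not evidence of binding.

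The design asks whether these genes differ between KO/+ and WT cerebella, and no member was called. The edgeR fit called 0 of 16813 genes (0%) at an adjusted p under 0.05, and 530 (3.15%) fell under 0.05 without adjustment, of which 210 were higher and 320 lower in KO/+. Without adjustment that count was 180 without KO/+ replicate 1 and likewise without KO/+ replicate 2, 1562 without KO/+ replicate 4 and 975 without WT replicate 3. Of the 32 members, 31 had a positive log2 fold change of KO/+ over WT, with a median of 0.54 and a range of -0.10 for Prlr to 1.62 for Krt18, while 8210 of all 16813 genes were positive with a median of -0.0047. The median standard error of the members was 0.70, against 0.14 over all genes, and their adjusted p lay between 0.957 and 0.991. Ttr was above 1000 TPM in 3 of 4 KO/+ and 1 of 3 WT libraries, and members that move together are not separate observations. No member had groups that did not overlap, whereas 665 of all genes (3.96%) did.

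Ttr had a mean of 739 ± 567 CPM in KO/+ (SD, n = 4) and 317 ± 538 CPM in WT (SD, n = 3), and a log2 fold change of 1.22 ± 2.12 (SE, 95% interval -3.83 to 6.27, edgeR adjusted p = 0.957). On the log2 CPM scale it averaged 7.86 ± 4.07 in KO/+ and 4.68 ± 4.73 in WT, a difference of 3.18 (two-sided exact permutation test over 35 splits, p = 0.4, where the smallest p possible is 0.0571). The spread within each genotype was thus larger than the difference between them. Leaving out WT replicate 2 gave a Ttr log2 fold change of 6.78 and leaving out WT replicate 1 gave 0.63, and each of the 32 members had a library without which its fold change turned sign or shifted by over 1.5 times. Enpp2 averaged 509 ± 247 CPM in KO/+ and 359 ± 159 CPM in WT, a log2 fold change of 0.51 ± 0.51 (SE). Otx2 averaged 29.5 ± 4.26 CPM in KO/+ and 28.7 ± 7.52 CPM in WT, a log2 fold change of 0.04 ± 0.18 (SE), and was among the best resolved members together with Cab39l at 0.15 ± 0.16, Ace at 0.11 ± 0.19 and Rdh5 at 0.03 ± 0.20. Slco1a5 was the single member with an unadjusted p under 0.05 (0.88 ± 0.38, unadjusted p = 0.0490, edgeR adjusted p = 0.957). Without WT replicate 2, 23 of the 32 members were under 0.05 without adjustment, beside 494 of all genes, and without KO/+ replicate 4 there were 2, beside 1562 of all genes. No member was called in either case.

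With the log2 CPM of Ttr added to the fit as a covariate, genotypes were compared among libraries at equal Ttr. Of 16812 genes 0 (0%) were called and 138 (0.821%) had an unadjusted p under 0.05. The 31 members had 13 positive and 18 negative log2 fold changes with a median of -0.02, and their median standard error was 0.25. The ends of the range were -0.97 ± 0.40 (SE) for Prlr and 0.83 ± 0.43 for Slco1a5, and Sostdc1 stood at -0.63 ± 0.25. Prlr and Sostdc1 were the 2 members with an unadjusted p under 0.05, at 0.0463 and 0.0397, and all members had an adjusted p of 1.0 (edgeR). For Folr1 and Aqp1 the values were -0.02 ± 0.33 and 0.05 ± 0.28. With 7 libraries, and with Ttr falling in 2 clusters, few libraries remain to tell genotype from the Ttr level.

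**Figure D4:**
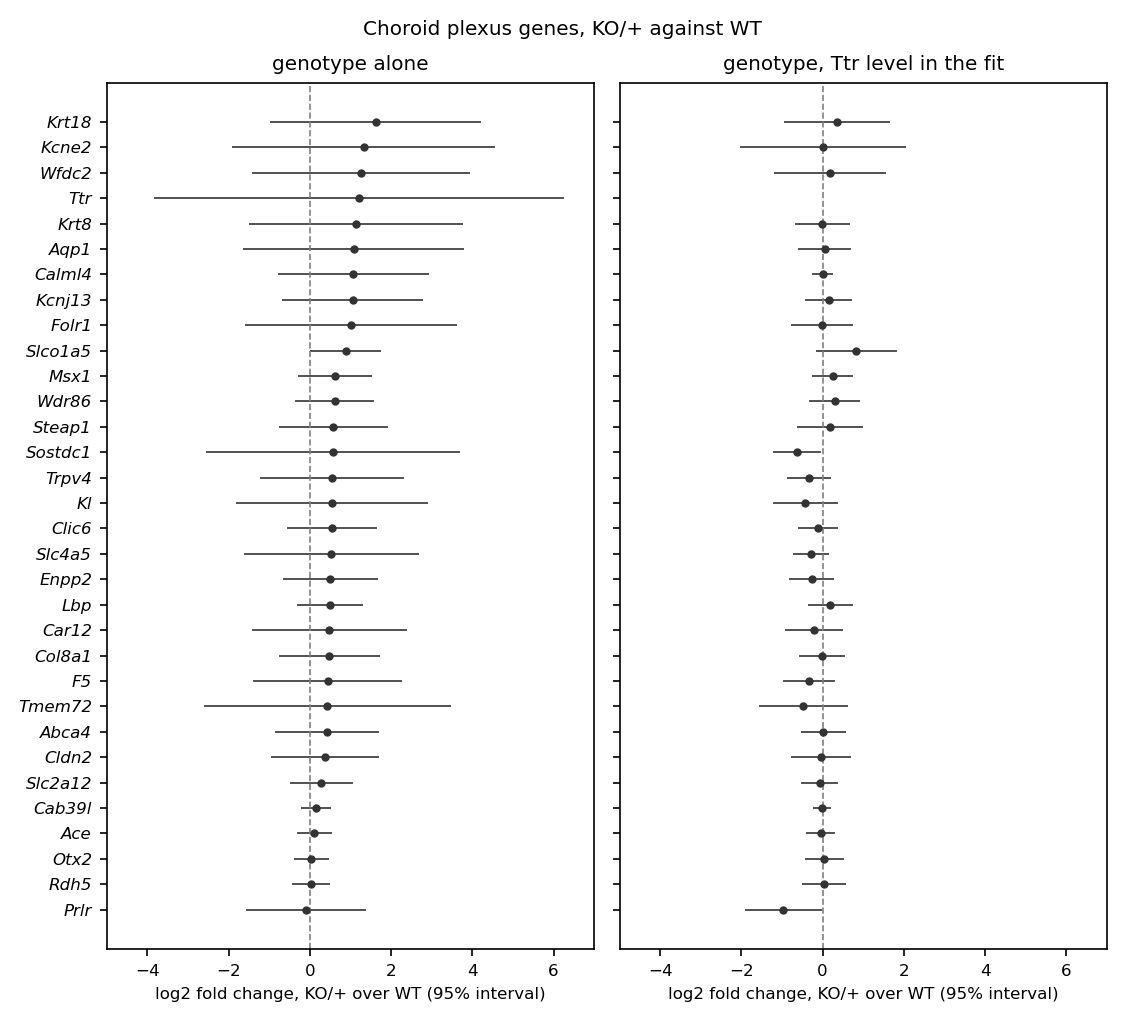
log2 fold change of KO/+ over WT for each gene (points) with its 95% interval (lines) from edgeR, with genotype alone (left) and with the Ttr level in the fit (right, without Ttr itself). All but Prlr lie above 0 on the left with wide intervals. On the right they lie on both sides of 0, with narrower intervals except for Otx2, Rdh5 and Slco1a5.

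Of the transcripts, edgeR called 0 of 44375 (0%) between genotypes, and DESeq2 called 55 of 59550 (0.0924%), of which 1 belonged to the set. This was Folr1-205, with 2.18, 1.89, 0.80 and 0.33 CPM in KO/+ and 0, 0 and 0.05 CPM in WT. WT replicate 2, in which the gene as a whole was high, held none of it, and in edgeR its adjusted p was 1.00.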

How the data were processed

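The submitters' processing notes name bcl2fastq, Trimmomatic 0.39, STAR 2.5.2a, RSEM 1.3.1 and the genome builds GRCm38 and mm10, without their settings. The kit was directional, per the labels' protocols, and no source used here gives the strand setting of the counting. Per the file headers, the authors deposited expected counts, which RSEM estimates per gene and transcript and which may hold fractions of a read. They also deposited TPM, which per the file headers allow for length as well as depth. The isoform percent, deposited with the transcripts, is the share of its gene's RNA molecules. Another 6 tables, of the whole series, were not used.

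Expected counts were rounded to whole numbers. Genes were filtered with filterByExpr, scaled by TMM and compared between 4 KO/+ and 3 WT libraries by the robust quasi-likelihood test of edgeR 4.0.16 (glmQLFTest after glmQLFit), using Benjamini-Hochberg adjustment over all 16813 genes tested and a threshold of 0.05. A standard error is the fold change divided by the root of the F statistic. CPM were computed from the same counts and factors, and log2 CPM used a prior count of 0.5. All 55450 gene IDs were found in GENCODE M21. Counts near 0 were read against a floor of 3 counts per library, which covers counting error only. The members, lists, tests and alternatives were chosen with earlier results of these data known. All 32 members are accounted for. Genes outside the set are named where they were nearest to Ttr, most abundant in a marker list or needed for a result, and transcripts where they were the most abundant of a gene with several or were singled out after their values were seen. Alternatives were DESeq2 1.42.0, limma 3.58.1 on log2(TPM + 1) and log2(TPM + 0.1), other scaling and filters, the replicate number as a block and leaving out each library. The fits, tested on simulated data, ran in R 4.3.3, and the other steps in Python 3.11.15 with SciPy 1.17.1.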

Additional observations from a re-analysis of the deposited data

Results flagged for a closer look

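Tmem72 had 0.169 CPM in KO/+ replicate 4, which stood apart from the other 3 KO/+ libraries at 5.96, 6.82 and 6.92 CPM by 0.858 of the group's range, above the 95% critical value of Dixon's test for 4 samples. About 1 group in 20 passes this limit by chance, and KO/+ replicate 4 was also the lowest KO/+ library for Ttr.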

How the results depend on the processing

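No member was called under any of the alternatives, with a lowest adjusted p of 0.523 across them, while members under 0.05 without adjustment numbered 0 to 23 on leaving out a library and 8 with the replicate block, against 1 in all libraries. The count of all genes called, 0 in edgeR, was 1 with the replicate block (Eif3j2, with 1029 genes at an unadjusted p under 0.05), and 0 to 1 on leaving out a library (Eif3j2 without KO/+ replicate 4, Wdfy1 without WT replicate 2, Fam220a without WT replicate 3). The replicate numbers did not pair the libraries, since same-numbered deviations had r = 0.0857, -0.343 and -0.0994. Transcripts called numbered 55 with DESeq2 and 0 to 2 on leaving out a library. Members following Ttr by the profile rule numbered 3 with Folr1 in its place and 0 to 1 on leaving out a library (1 without WT replicate 1). The Ttr difference of 3.18 ran from 1.14 (without WT replicate 1) to 5.77 (without WT replicate 2). In TPM, 25 members were in the order of Ttr in all 12 pairs. On leaving out a library, 26 to 28 members were in the order of Ttr in all the pairs that remained. Fewer pairs remain then, so this count could not fall below the 26 of all libraries and does not check it.

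Some log2 fold changes turned sign. Otx2 was -0.029 with log2(TPM + 1), -0.030 with log2(TPM + 0.1) and -0.032 with the replicate block, Rdh5 was -0.0020 and -0.00051 on those TPM scales, and Prlr was 0.39 with the block. The ranges on leaving out a library were -0.14 to 0.23 for Otx2, -0.0089 to 4.27 for Sostdc1, -0.0037 to 1.85 for F5, -0.13 to 4.37 for Tmem72, -0.53 to 0.39 for Prlr, -0.020 to 1.45 for Cldn2, -0.19 to 0.14 for Rdh5 and -0.047 to 0.27 for Ace. All 32 members were highest without WT replicate 2, and 18 were lowest without WT replicate 1 and 13 without WT replicate 3. WT replicate 2 had the highest WT CPM of every member, so leaving it out lowers the WT mean and raises the fold change. Why WT replicate 2 was high was not tested. Depth limits Krt8, Krt18, Kcne2, Wfdc2, Sostdc1 and Tmem72, which had 5 or fewer counts in at least 1 library.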
